A study of Silurus meridionalis with 18 samples.

Results

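The 4 libraries of neural tissue in a survey of the adult southern catfish, Silurus meridionalis, were set against the 14 libraries of its other tissues. The neural tissues were chosen by their labels alone and make up 4 of 18 libraries: Brain, Telecephlon (the labels' spelling of the telencephalon, a part of the forebrain), Olfactory_bulb (the first relay of smell) and Retina. The others were Gill, Head_kidney, Heart, Intestine, Kidney, Liver, Mandibular_barbel, Maxillary_barbel, Muscle, Ovary, Pancreas, Skin, Spleen and Testis. All came from adult fish of a bottom-dwelling habitat, with no treatment named, and the sources used here do not say how many fish, of which sex, gave the tissues. Levels are given in FPKM, a fragment count that the authors divided by gene length and library depth.

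Nervous tissue is built from neurons, which pass signals along axons and release transmitter from vesicles at synapses, and from glia, which feed, insulate and buffer them. Astroglia clear transmitter and oligodendroglia wrap axons in myelin. The retina is an outgrowth of the forebrain and adds photoreceptors to neurons and Müller glia. Many genes of neurons belong to families in which a sister gene serves the rest of the body.

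A difference below is the mean log2(FPKM + 1) of the 4 neural libraries minus that of the 14 others, given with its standard error, and n is 4 and 14 throughout. Differences of low genes are understated on this scale. A gene was called when the adjusted p of limma was below 0.05 and the difference was at least 1, over 18102 genes that reached an FPKM of 1 in at least 4 libraries. Of the tested genes 718 passed the filter through the neural libraries alone, and 716 of these were called higher, as they nearly had to be, so a count of calls is a description. Every tested gene below that stayed under 1 FPKM in all 14 other tissues is among these 718. Each tissue was 1 library, so a p-value measures the spread between tissues, not between fish. The neural tissues are also not independent of each other, since the telencephalon and the bulb are parts of the brain, and whether the Brain sample held them is not stated. The spread was unequal, with a median variance of 0.186 among the neural libraries and 1.32 among the others.

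Of the 18102 genes, 3806 were called higher in the neural tissues, which is 21.0%, and 91 were called lower, which is 0.503%. In 2269 genes (12.5%) all 4 neural libraries stood above all 14 others with a difference of at least 1, and in 31 genes (0.171%) all 4 stood below. The balance of these calls depends on how libraries are scaled. The median difference over all tested genes was 0.69, so a gene at 0 lay below most others. Summed FPKM was between 457883 and 507002 in the neural libraries and between 520763 and 1006540 in the others. Between 15744 and 16899 genes reached an FPKM of 1 in the neural libraries, against 5740 in Pancreas to 15855 in Kidney among the others. With every library scaled to the same upper quartile, the median difference was 0.05 and the calls were 2578 higher and 228 lower. The share of calls that were higher was 97.7% as deposited and 91.9% after that scaling. Leaving out Muscle, Ovary, Pancreas and Testis gave 3483 higher and 377 lower. Leaving out any 1 neural library left between 1988 and 2503 genes higher and between 39 and 57 lower, of 17106 to 17236 tested. The filter still asked for 4 libraries, so genes under FPKM 1 in all 14 others were not tested there. These include 716 of the 3806 genes called higher.

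Depth was not balanced. Estimated from the smallest steps in the values, Brain and 9 others held 47600000 to 50900000 fragments, the other 3 neural libraries with Intestine and both barbels held 19900000 to 22600000, and Muscle and Skin fewer. Within the middle depth group, where 3 neural libraries meet 3 others, 1530 genes were called higher and 1059 lower, a 59.1% share of higher calls. Of the 3806 genes called higher over all 18 libraries, 1245 were called higher there too and 0 were called lower.

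**Figure D1:**
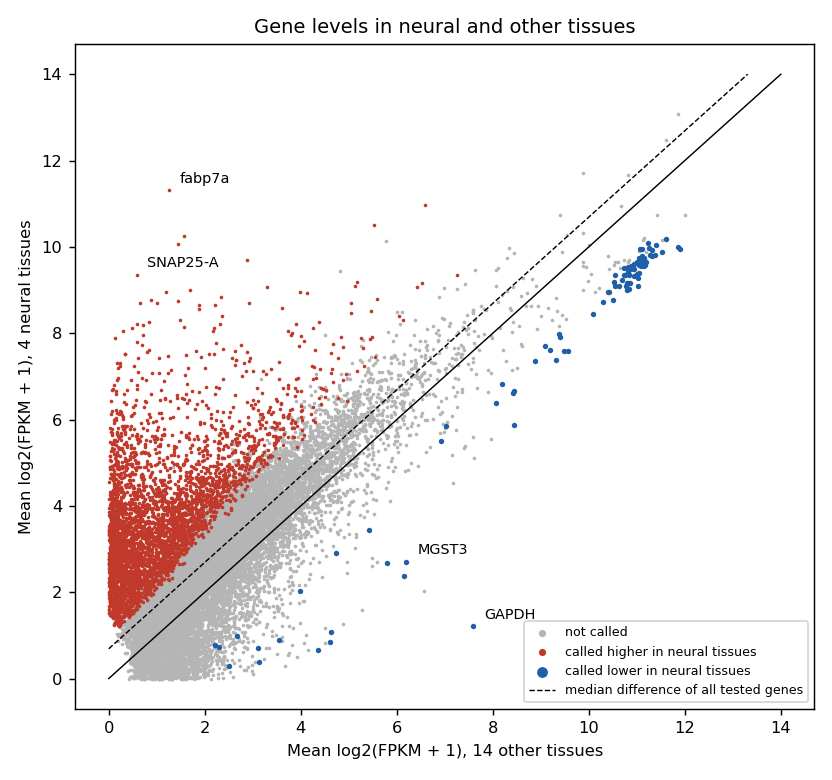
Mean level of each tested gene in the 4 neural libraries (vertical axis) against the 14 other libraries (horizontal axis), both as mean log2(FPKM + 1). The solid line marks equal levels and the dashed line the median difference of 0.69, and the 91 genes called lower gather at the high end among genes of translation.

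The largest differences were those of a glial lipid carrier and of proteins of nerve endings. Fatty acid binding protein 7a (C0J45_07668), found in astroglia and neural stem cells, has 4 coding exons on chromosome 8 between 3419866 and 3421276 in the deposited gene models, whose build is not given in the sources used here. It had 5549 FPKM in Brain, 2445 in Telecephlon, 3050 in Olfactory_bulb and 1008 in Retina, against 0 to 25.6 with a median of 0.951 in the other tissues. All 4 neural libraries were far above the highest of the others, Maxillary_barbel, and the difference was 10.06 ± 0.69 (adjusted p = 2.79e-10, limma). Synaptosomal-associated protein 25-A (C0J45_19735), a SNARE that fuses vesicles with the nerve terminal, had 652 FPKM in Brain, 1302 in Telecephlon, 744 in Olfactory_bulb and 294 in Retina, against 0 to 4.43 with a median of 0.344 in the other tissues. Its difference was 8.78 ± 0.48 (adjusted p = 2.08e-11). Brain creatine kinase b (C0J45_19974), which regenerates ATP from phosphocreatine, had 1187 FPKM in Brain, 1071 in Telecephlon, 950 in Olfactory_bulb and 1802 in Retina, against 0.0338 to 23.6 with a median of 1.93 in the other tissues. It was the most even of these 3 over the neural libraries and differed by 8.68 ± 0.67 (adjusted p = 1.03e-09). Other models named brain creatine kinase were not called, C0J45_01620 at 0.25 ± 1.0 and C0J45_01618 at -0.45 ± 0.77. Both were highest in Heart, at 546 and 39.9 FPKM.

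The next largest were tubulin beta 2c (C0J45_12593), a microtubule subunit, at 7.88 ± 0.63, and synaptophysin b (C0J45_15291), a vesicle membrane protein, at 7.76 ± 0.39. Excitatory amino acid transporter 2 (C0J45_09902), the glial glutamate pump, had 426 FPKM in Brain, 471 in Telecephlon, 321 in Olfactory_bulb and 48.5 in Retina, against 0 to 0.276 in the other tissues. Its difference was 7.75 ± 0.45, with Retina well under the other 3 neural libraries. Gamma-synuclein b (C0J45_07317), a protein of nerve endings, also differed by 7.75, but its level was 63.0 FPKM in Testis. S100-B (C0J45_22184), a calcium-binding protein of astroglia, differed by 7.67, with 1518 FPKM in Brain and 33.7 in Retina. Cellular retinoic acid-binding protein 1 (C0J45_09465) ran the other way, with 118 FPKM in Brain, 231 in Telecephlon, 410 in Olfactory_bulb and 535 in Retina, against at most 2.59 in the other tissues. Stathmin-2 (C0J45_19593), a regulator of microtubules in axons, brain acid soluble protein 1 (C0J45_17833), a growth cone protein, and VAMP2 (C0J45_10499), the vesicle SNARE, completed the 12 with differences of 7.62, 7.47 and 7.42. No call among these 12 genes was lost when 1 library was left out, where the gene was still tested. Excitatory amino acid transporter 2 passed the filter through the neural libraries alone, so its call was close to fixed. It was not tested when 1 neural library was left out.

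**Figure D2:**
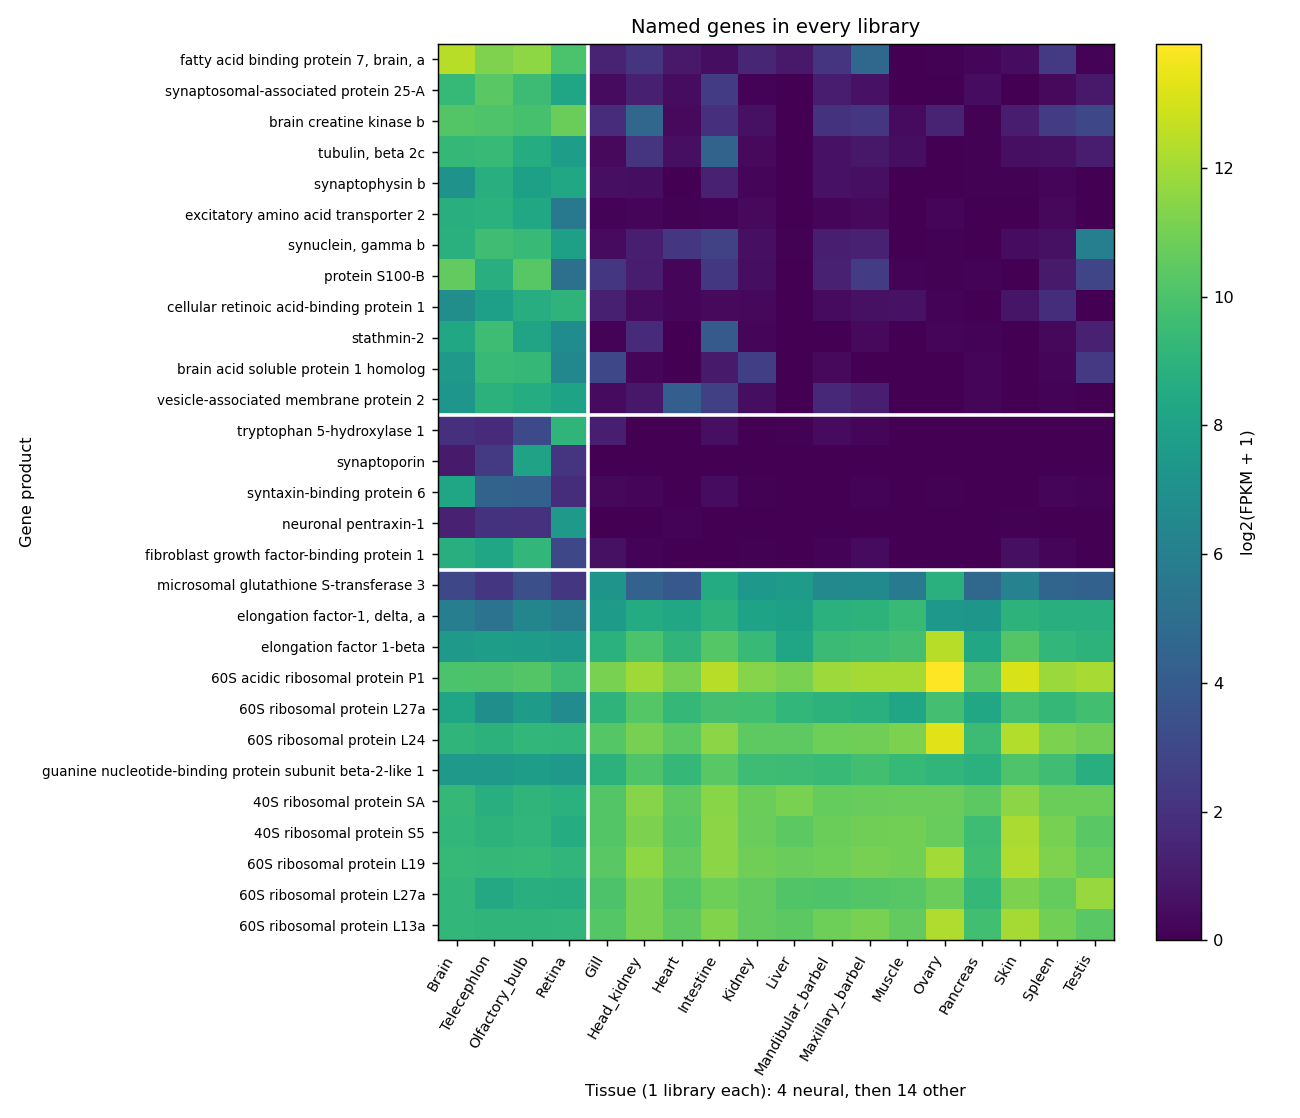
Level of named genes as log2(FPKM + 1) in every library, with the 4 neural libraries left of the white line and the 14 others right of it. The top block holds the 12 largest differences upward, the middle block the 5 called genes with the widest range over the neural libraries, and the bottom block the 12 largest downward without overlap.

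Genes of the neuronal cytoskeleton and of transport along axons were higher nearly throughout. Of 41 gene models matched to the list, 35 were tested, 34 were called higher and 0 lower, with a median difference of 4.29 against 0.69 over all tested genes. With no filter on low values, 38 of 41 were called higher. Of the 35 tested, 11 passed the filter through the neural libraries alone, so their calls were close to fixed. Neuromodulin (C0J45_11113), also known as GAP-43 and a mark of growing axons, had 151 FPKM in Brain, 1034 in Telecephlon, 246 in Olfactory_bulb and 51.6 in Retina, against 0 to 21.6 with a median of 0.271 in the others. Its difference was 7.04 ± 0.71 (adjusted p = 5.59e-08, limma), and Intestine, which has its own nerve network, was the highest of the others. Alpha-internexin b (C0J45_20635), an intermediate filament of neurons, had 161 FPKM in Brain, 90.4 in Telecephlon, 66.4 in Olfactory_bulb and 109 in Retina, against 0 to 0.188 in the others. It differed by 6.61 ± 0.31. It passed the filter through the 4 neural libraries alone, so its call was close to fixed.

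The machinery of vesicle release gave the highest median of the neuronal lists. Of 39 models, 36 were tested and 33 were called higher with a median difference of 4.54, and with no filter 34 of 39 were called. Among the 36, 12 passed the filter through the neural libraries alone. SNAP25-A, synaptophysin b and VAMP2, described above, led the list. N-ethylmaleimide-sensitive factor b (C0J45_07439), the ATPase that takes spent SNARE complexes apart in every cell, was the furthest in the other direction at -0.19 ± 0.60 and was not called. It had 4.51, 2.78, 5.91 and 4.15 FPKM in Brain, Telecephlon, Olfactory_bulb and Retina, inside the range of 0.635 to 15.7 in the others. The summed level of the 39 models was between 2296 FPKM in Brain and 4988 in Telecephlon, against 3.97 to 169 in the other tissues, with Heart the highest of these.

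Channels that carry the action potential and open calcium entry at the terminal were called higher in 23 of 27 tested models, with a median of 2.63. Because 28 of the 55 models missed the filter, the count without it was also taken, and it was 44 of 55. Of the 27 that passed, 12 did so through the neural libraries alone. In the middle depth group 2 of 10 were called, at a median of 1.62, and with related tissues averaged 3 of 10, at 1.69. Over all genes the calls higher were 1530 of 14038 and 728 of 15781 in these sets. Sodium channel subunit beta-1 (C0J45_18627), which tunes channel gating, had 22.3 FPKM in Brain, 27.2 in Telecephlon, 19.3 in Olfactory_bulb and 65.8 in Retina, against at most 0.397 in the others. Its difference was 4.83 ± 0.30, with Retina the highest. This gene passed the filter through the neural libraries alone, so its call was close to fixed. Sodium channel subunit beta-3 (C0J45_11354) had 507 FPKM in Telecephlon and 65.2 in Brain, yet Heart, another excitable tissue, reached 91.8, so the groups overlapped, at a difference of 4.72 ± 0.91 (adjusted p = 3.43e-04, limma).

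**Figure D3:**
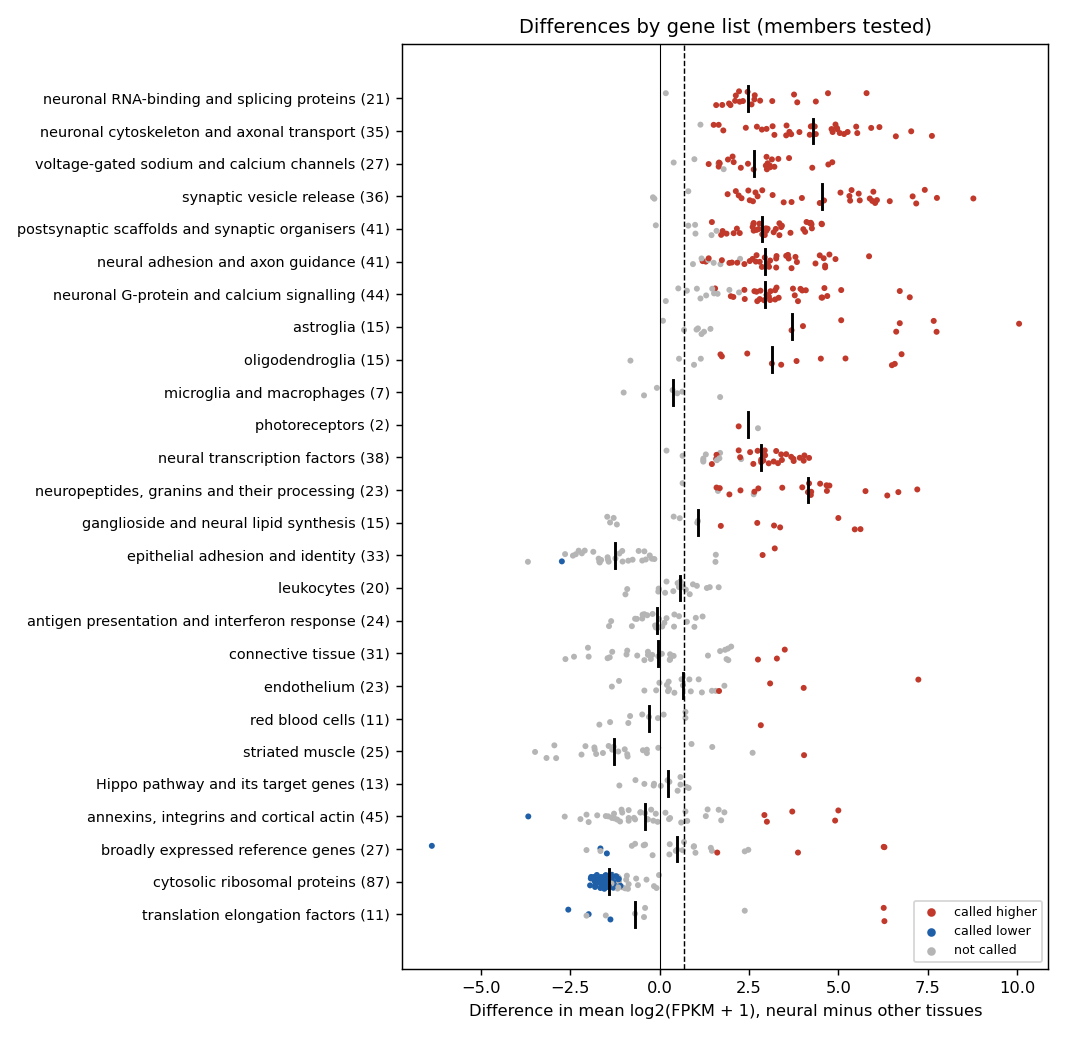
Difference of every tested member of the gene lists in mean log2(FPKM + 1), neural minus other tissues, with 1 point per gene model and a black bar at each list's median. The dashed line marks the median difference of all tested genes, and the number tested stands beside each name. The lists of neurons lie right of it, and those of epithelium, striated muscle and ribosomal proteins left of it.

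Among postsynaptic scaffolds, on the receiving side, and synaptic organisers 35 of 41 tested models were called higher, with a median of 2.87. With no filter 44 of 52 were called. The filter was passed by 13 of the 41 through the neural libraries alone. Calcium/calmodulin-dependent kinase II beta (C0J45_10645), which strengthens synapses, had 17.8 FPKM in Brain, 93.4 in Telecephlon, 143 in Olfactory_bulb and 17.3 in Retina, against 0 to 6.67 in the others. Its difference was 4.53 ± 0.66 (adjusted p = 9.05e-06, limma), with the telencephalon and the bulb above Brain and Retina. Neurexin 1a (C0J45_07294), a presynaptic adhesion protein, differed by 4.26 ± 0.46. A model of neuronal pentraxin-1 (C0J45_00044), which gathers glutamate receptors, had 310 FPKM in Telecephlon and 2.82 in Olfactory_bulb, and Heart reached 5.06. Disks large homolog 3 (C0J45_05005), a membrane scaffold, was not called at -0.11 ± 0.46.

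Adhesion and axon guidance genes were called higher in 35 of 41 tested models with a median of 2.94, and in 39 of 47 with no filter. Among these 41, 9 passed the filter through the neural libraries alone. Contactin-1 (C0J45_16323), an immunoglobulin-type adhesion protein of axons, had 75.4 FPKM in Brain, 120 in Telecephlon, 44.7 in Olfactory_bulb and 36.1 in Retina, against at most 0.770 in the others. It differed by 5.86 ± 0.33 (adjusted p = 2.76e-11, limma), but it too passed the filter through the neural libraries alone, so its call was close to fixed. Cell adhesion molecule 3 (C0J45_17755) differed by 4.92 and limbic system-associated membrane protein (C0J45_11112) by 4.75. G-protein and calcium signalling genes of neurons were called in 33 of 44 tested models with a median of 2.96, and 12 of the 44 passed the filter through the neural libraries alone. Visinin-like 1 (C0J45_08108), a neuronal calcium sensor, had 226 FPKM in Brain, 367 in Telecephlon, 157 in Olfactory_bulb and 39.4 in Retina, against at most 1.03 in the others. Its difference was 7.0 ± 0.44, and that of the G-protein gamma-3 subunit (C0J45_14053) was 6.72 ± 0.57.

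Regulators of RNA and of transcription gave the same direction. Among RNA-binding and splicing proteins 20 of 21 tested models were called higher with a median of 2.46, and 23 of 25 with no filter. Of the 21, 9 passed the filter through the neural libraries alone, so their calls were close to fixed. A Musashi homolog 1-like protein (C0J45_15115), which holds back translation in stem cells, had 45.4 FPKM in Brain, 42.2 in Telecephlon, 64.8 in Olfactory_bulb and 291 in Retina, against at most 2.86 in the others, a difference of 5.79 ± 0.49. CELF3 (C0J45_23354), a splicing regulator, differed by 4.71 and ELAV-like protein 3 (C0J45_19292), which stabilises neuronal messages, by 4.37.

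Of 71 models of neural transcription factors, 38 were tested and 28 called higher, with a median of 2.84, and 45 of 71 were called with no filter. Among the 38, 12 passed the filter through the neural libraries alone. Within the middle depth group 2 of 11 were called, at a median of 1.15, and with related tissues averaged 1 of 10, at 1.31. Among all genes the calls higher were 1530 of 14038 and 728 of 15781 in these sets. These sets again left out models under FPKM 1 in all the other tissues. ZIC1 (C0J45_04524), a zinc finger factor of the dorsal brain, had 71.2 FPKM in Brain, 10 in Telecephlon, 44.8 in Olfactory_bulb and 2.47 in Retina, against at most 0.306 in the others. The gene for ZIC2 (C0J45_02721) had the same order of tissues, with 56.7, 10.2, 28.2 and 3.24 FPKM in Brain, Telecephlon, Olfactory_bulb and Retina. Their differences were 4.18 ± 0.48 and 4.03 ± 0.41. ZIC1 passed the filter through the neural libraries alone, so its call was close to fixed. Sox-2 (C0J45_08694), a factor of neural and sensory progenitors, was even over the neural libraries at 36.4 to 52.2 FPKM. It was higher still in Mandibular_barbel at 92.8 FPKM. Its call at 4.05 ± 1.12 was lost in several settings. Within the middle depth group, where both barbels were among the 3 other libraries, the difference was 1.15 (adjusted p = 0.659, limma). With depth group as a term it was 2.55 (adjusted p = 0.13). Without Muscle, Ovary, Pancreas and Testis it was 3.48 (adjusted p = 0.0549), and with related tissues averaged 4.25 (adjusted p = 0.067).

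Neuropeptides, granins and their processing enzymes were called higher in 20 of 23 tested models, with a median of 4.15, and in 22 of 30 with no filter. Here 1 of the 23 passed the filter through the neural libraries alone. Secretogranin-2 (C0J45_17784), which packs dense-core vesicles, had 149 FPKM in Brain, 475 in Telecephlon, 354 in Olfactory_bulb and 94.4 in Retina, against 0 to 7.49 in the others, a difference of 7.21 ± 0.54 (adjusted p = 7.58e-10, limma). Carboxypeptidase E (C0J45_22884), which trims peptide hormones, differed by 6.68 and 7B2 (C0J45_20054), the chaperone of a prohormone convertase, by 6.37.

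The other neuronal lists were also read in smaller sets of libraries, where fewer models pass the filter. It still asked for 4 libraries or averaged units, more than the neural ones in either set. Models under FPKM 1 in all the other tissues were thus left out, so these counts cannot be set directly against those over 18 libraries. Among all genes 1530 of 14038 were called higher in the middle depth group and 728 of 15781 with related tissues averaged. Over the middle depth group alone the calls higher were 12 of 16 for cytoskeleton and 12 of 15 for vesicle release. They were 5 of 14 for postsynaptic scaffolds and synaptic organisers and 11 of 19 for adhesion. They were 9 of 23 for G-protein signalling, 5 of 8 for RNA-binding proteins and 8 of 14 for neuropeptides. With related tissues averaged they were 11 of 16, 6 of 11, 8 of 19, 12 of 23, 10 of 27, 3 of 7 and 6 of 10 in the same order. No member of these 7 lists was called lower in either set.

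Among glial genes the levels differed widely between the neural tissues. Of 22 astroglial models 15 were tested and 8 called higher, with a median of 3.69, led by fabp7a, EAAT2 and S100-B. Among the 15, 4 passed the filter through the neural libraries alone. With no filter 8 of 21 were called, at a median of 1.24. In the middle depth group 3 of 8 were called, at a median of 1.33 with 4 of the 8 below 0, and with related tissues averaged 2 of 9, at 1.26. Their summed level was between 1902 FPKM in Retina and 9768 in Brain, against 26.4 to 691 in the others. Of 21 oligodendroglial models 15 were tested and 11 called higher, with a median of 3.14. Within the middle depth group 4 of 12 were called, at a median of 1.80. Their summed level was 16907 FPKM in Brain, 1311 in Telecephlon, 969 in Olfactory_bulb and 307 in Retina, against 6.88 to 649 in the others.

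Myelin basic protein (C0J45_18875) had 7447 FPKM in Brain, 455 in Telecephlon, 328 in Olfactory_bulb and 22.8 in Retina, against 0 to 123 with a median of 1.79 in the others. The range over the neural libraries was wide, and Retina lay under Maxillary_barbel, at a difference of 6.77 ± 1.18 (adjusted p = 1.04e-04, limma). Myelin protein P0 (C0J45_17751), which in fish is part of central as well as peripheral myelin, had 4768 FPKM in Brain and, in Retina, less than the 298 FPKM of Maxillary_barbel. Within the middle depth group, which leaves out Brain, neither was called: the differences were 3.01 (adjusted p = 0.301) for myelin basic protein and 1.75 (adjusted p = 0.279) for P0. Proteolipid protein 1b (C0J45_21687) kept all 4 neural libraries above the others, with 2676 FPKM in Brain, 252 in Telecephlon, 179 in Olfactory_bulb and 52.1 in Retina, against at most 19.3. Claudin-11 (C0J45_18088), a myelin junction protein in mammals, was at or below 0.482 FPKM in all 4 neural libraries and was not called at -0.82 ± 0.41.

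Of 7 microglial and macrophage models 0 were called in either direction and 0 had an unadjusted p under 0.05 by limma, at a median of 0.36. Over the middle depth group alone 1 of 6 was called higher and 1 lower. The receptor CSF1R (C0J45_10020) had 7.61, 4.49, 13 and 4.46 FPKM in Brain, Telecephlon, Olfactory_bulb and Retina, against 0.0496 to 60.3 in the others with Spleen the highest. Photoreceptor genes belonged to Retina alone among the neural libraries. Of 31 models 27 reached an FPKM of 1 in Retina and 1 did in each of Brain, Telecephlon and Olfactory_bulb, and the summed level was 57219 FPKM in Retina and at most 7.53 in the other 3. A gene high in 1 tissue fails the filter of 4 libraries, and 2 of the 31 were tested. The cyclic nucleotide-gated channel subunit beta-1 (C0J45_05413), of the rod channel, was called at 2.21 ± 0.48, with 32.1 FPKM in Retina. S-arrestin (C0J45_11175), which shuts off rhodopsin, had 1695 FPKM in Retina, 1.23 in Brain, 0.265 in Telecephlon and 0.803 in Olfactory_bulb, against at most 2.19 in the others, and was not called.

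Genes of ganglioside and neural lipid synthesis split. Of 15 tested models 7 were called higher and 0 lower, with a median of 1.07. In the middle depth group 4 of 8 were called higher and 3 lower, at a median of -0.05. Of the 7, 4 build the sugar chains of gangliosides and 3 make or lengthen fatty acids. An alpha-2,8-sialyltransferase (C0J45_19244), which adds sialic acid, differed by 3.37, and a second one (C0J45_11786) by 3.20. Fatty acid desaturase 2 (C0J45_09643) had 93.1 FPKM in Brain, 81.2 in Telecephlon, 80.7 in Olfactory_bulb and 33.0 in Retina, against 0 to 16.8 in the others with Liver the highest, a difference of 5.62 ± 0.59. A second copy (C0J45_09644) differed by 5.00 ± 0.40, and the fatty acid elongase ELOVL4 (C0J45_04335) by 5.46 ± 0.38 (adjusted p = 2.84e-10, limma). Copies of the ganglioside enzyme beta-1,4 N-acetylgalactosaminyltransferase 1 were divided. One (C0J45_00979) was called higher at 1.71, and another (C0J45_14438) was not called at -1.47 ± 0.94 and was highest in Head_kidney at 30.8 FPKM.

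Families with a form known from neurons and a form known from other tissues were set side by side. Of 46 models of the neuronal forms 40 were tested, and 34 were called higher and 0 lower with a median difference of 4.56. Of 63 models of the other forms 59 were tested, and 15 were called higher and 1 lower with a median of 0.76, close to the 0.69 of all genes, while 25.4% called higher stood near the background of 21.0%. Near-identical copies can share reads, so the split between copies of 1 form is uncertain.

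In glycolysis the forms moved in opposite directions for aldolase. Aldolase C-B (C0J45_14123) had 1295 FPKM in Brain, 1713 in Telecephlon, 1411 in Olfactory_bulb and 1414 in Retina, against 2.03 to 355 with a median of 103 in the others, a difference of 4.98 ± 1.18. Aldolase B (C0J45_04770), the liver and kidney form, had 6.14, 2.67, 6.45 and 2.74 FPKM in Brain, Telecephlon, Olfactory_bulb and Retina, against 2.70 to 1660 with a median of 69.6 in the others. It was called lower at -3.77 ± 1.08, though Telecephlon alone lay under the lowest of the others, and the call was lost without Retina (adjusted p = 0.0521, limma) or without Telecephlon (adjusted p = 0.0615). Gamma-enolase (C0J45_23272) had 161 FPKM in Brain, 196 in Telecephlon, 552 in Olfactory_bulb and 61.5 in Retina, against at most 7.72 in the others, a difference of 7.17 ± 0.55. The widespread alpha-enolase (C0J45_14501) was higher in level, at 502 to 825 FPKM in the neural libraries and 14.2 to 1068 in the others, and was not called at 1.82 ± 0.84. A second alpha-enolase model (C0J45_00668) had 11.4 to 29.4 FPKM in the neural libraries and 0.0885 to 17.0 in the others, and was called higher at 2.18 ± 0.66 (adjusted p = 0.0190, limma). That call was lost without Olfactory_bulb (0.0736), Retina (0.0561) or Telecephlon (0.112).

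At the membrane, SNAP25-A and SNAP25-B (C0J45_07583) differed by 8.78 and 5.60, while a SNAP23 model (C0J45_07709), which serves secretion elsewhere, had 22.8 to 56.5 FPKM in the neural libraries and 3.29 to 102 in the others, at 0.10 ± 0.76. Within the neural tissues the SNAP25 copies were divided: SNAP25-B had 403 FPKM in Retina and 130 in Telecephlon, but 13.1 in Brain and 11.9 in Olfactory_bulb. Another SNAP25 model (C0J45_11493), which was not tested, had 47.4 FPKM in Olfactory_bulb and 0.345 to 1.88 in the other neural libraries. It reached 4.54 in Intestine. Syntaxin-1B (C0J45_18682) differed by 6.08 ± 0.43 and syntaxin-4 (C0J45_07102) by 0.60 ± 0.77. VAMP2 differed by 7.42 and VAMP8 (C0J45_19020) by 0.12 ± 0.89. Among splicing factors, 3 models of CELF4 differed by between 2.24 and 2.81. The epithelial factor ESRP1 (C0J45_18399) was at or under 0.959 FPKM in all 4 neural libraries and reached 107 among the others, and was not called at -1.71 ± 1.14.

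**Figure D4:**
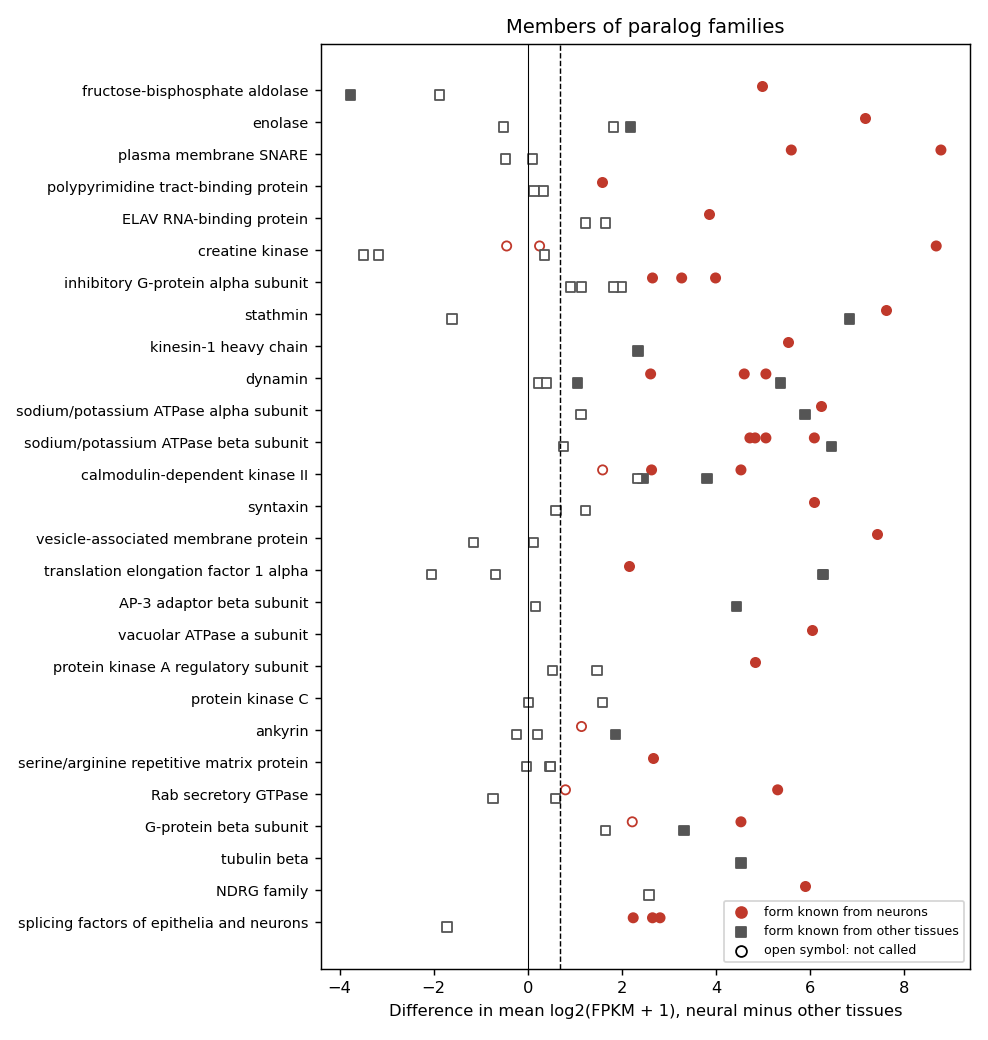
Difference in mean log2(FPKM + 1), neural minus other tissues, of each tested model in 27 paralog families, with red circles for the form known from neurons and grey squares for the forms known from other tissues. Filled symbols were called. The neuronal forms lie mostly right of 2 and the other forms spread around the dashed median of all genes.

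Some forms known from other tissues were higher in the neural group. Stathmin 1b (C0J45_04263) had 1622 FPKM in Brain, 1281 in Telecephlon, 687 in Olfactory_bulb and 329 in Retina, against 0.169 to 30.2 in the others, at 6.83 ± 0.76. A second model of the same name (C0J45_23204) had 4.67 to 13 FPKM in the neural libraries and up to 164 in the others, and was not called at -1.61 ± 1.07. Sodium/potassium ATPase alpha-1 (C0J45_02847), the pump subunit of most cells in mammals, had 777 FPKM in Brain, 251 in Telecephlon, 401 in Olfactory_bulb and 97.4 in Retina, against at most 37.2 in the others, at 5.89 ± 0.99, next to 6.24 ± 0.68 for the neuronal alpha-3 (C0J45_03803). The beta 1b subunit (C0J45_20901) differed by 6.45 ± 0.39, while beta 1a (C0J45_00761) was not called at 0.76 ± 1.14. Beta 1b had at most 0.772 FPKM in the others and passed the filter through the neural libraries alone, so its call was close to fixed.

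Translation elongation factor 1 alpha, which brings transfer RNA to the ribosome, also had models in both directions. A pair of models named alpha 1 (C0J45_20642 and C0J45_01489) differed by 6.29 ± 0.37 and 6.27 ± 0.57, with 68.8 to 147 and 75.5 to 199 FPKM in the neural libraries, against at most 2.17 and 8.90 in the others. The model named alpha 2 (C0J45_14651), the form of neurons and muscle in mammals, had 13 FPKM in Brain and 2.16 to 2.56 in the other neural libraries, at 2.14 ± 0.29. With at most 0.593 FPKM in the others, it passed the filter through the neural libraries alone, so its call was close to fixed. The most abundant model (C0J45_19464) had 1382 to 1953 FPKM in the neural libraries, against 235 to 6513 with a median of 3196 in the others, and was not called at -0.69 ± 0.65. The polypyrimidine tract-binding proteins, where neurons of mammals replace form 1 by form 2, separated little. Form 2 (C0J45_11686) had 7.64 to 13.7 FPKM in the neural libraries against 0.151 to 7.54 in the others. It was called at 1.58 ± 0.54, but not without any 1 neural library (adjusted p = 0.0676 to 0.159, limma), without Liver (0.0536) or without Skin (0.0533), and not after upper-quartile scaling (0.88, adjusted p = 0.126).

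The 4 neural libraries differed among themselves. Across the 3806 genes called higher, Telecephlon was the highest of the 4 in 1791 (47.1%), against 24.2% of all tested genes, and Retina was the lowest in 2200 (57.8%), against 44.5% of all tested genes. The correlation of log2(FPKM + 1) across these genes, which are not independent replicates, was 0.820 between Telecephlon and Olfactory_bulb, 0.756 and 0.760 between each of these and Brain, and 0.570 to 0.602 between Retina and the other 3. The median range over the 4 was 1.67 in the genes called higher, and 0.96 in all tested genes.

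The most even of the named genes called higher at 10 FPKM or more were not neuron-specific. VPS4A (C0J45_05480), an ATPase of endosome sorting, had 51.3 FPKM in Brain, 51.3 in Telecephlon, 48.8 in Olfactory_bulb and 48.1 in Retina, against 0.537 to 30.3 in the others, at 2.01 ± 0.66. Tubulin-specific chaperone E (C0J45_08785), mediator subunit 22 (C0J45_21330), leucine zipper transcription factor-like 1 (C0J45_18352) and a LETM1 and EF-hand protein of mitochondria (C0J45_01698) had differences between 1.78 and 2.21. The first 3 of these 5, VPS4A included, lost their call without any 1 neural library, with adjusted p between 0.0883 and 0.112 for VPS4A, between 0.0516 and 0.0681 for the chaperone and between 0.107 and 0.135 for the mediator subunit by limma. The mediator subunit was also lost without Liver, Testis, Intestine or Skin (adjusted p = 0.0529 to 0.0562). After upper-quartile scaling VPS4A (adjusted p = 0.193, limma), the mediator subunit (0.137) and the leucine zipper protein (0.155) were not called. With depth group as a term VPS4A (0.127), the chaperone (0.0719), the mediator subunit (0.145) and the LETM1 protein (0.0919) were not called.

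The widest ranges set a single neural tissue apart, by a high level or, in fibroblast growth factor-binding protein 1, by a low one. Tryptophan 5-hydroxylase 1 (C0J45_09611), which makes serotonin and feeds melatonin synthesis, had 555 FPKM in Retina, 2.70 in Brain, 2.31 in Telecephlon and 7.69 in Olfactory_bulb, against at most 1.27 in the others. Synaptoporin (C0J45_00631), a relative of synaptophysin, had 255 FPKM in Olfactory_bulb and 1.01 to 4.23 in the other neural libraries, against at most 0.0332 in the others. Syntaxin-binding protein 6 (C0J45_20335) had 295 FPKM in Brain, 20.3 in Telecephlon, 18.2 in Olfactory_bulb and 2.51 in Retina. A second neuronal pentraxin-1 model (C0J45_23348) was the counterpart of the first, with 182 FPKM in Retina and 1.45 to 3.11 in the other neural libraries. Fibroblast growth factor-binding protein 1 (C0J45_08461) had 306 to 601 FPKM in the brain tissues and 7.15 in Retina, against at most 0.570 in the others. This gene and synaptoporin passed the filter through the neural libraries alone, so their calls were close to fixed.

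A set of 157 genes had at least 5 FPKM in all 4 neural libraries and under 1 FPKM in all 14 others. These thresholds and the examples were chosen after the values were seen. Ranked by their lowest neural level, alpha-internexin b led. Neuroglycan C (C0J45_18850), a proteoglycan of brain matrix, had 99.7 FPKM in Brain, 138 in Telecephlon, 134 in Olfactory_bulb and 56.2 in Retina. Purkinje cell protein 4 (C0J45_10545), a calmodulin regulator, had 187, 58.4, 122 and 38.8 FPKM in Brain, Telecephlon, Olfactory_bulb and Retina. Glutamate decarboxylase 1 (C0J45_00895), which makes the inhibitory transmitter GABA, had 31.0, 68.9, 192 and 67.3 FPKM in the same order. The vesicular transporter that loads GABA and glycine (C0J45_00343) had 55.6, 68.4, 113 and 20.9. In both GABA genes Olfactory_bulb was the highest.

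The genes called higher were not detected equally often in the other tissues. Of the genes called higher, 2091 (54.9%) reached an FPKM of 1 in Kidney, 1966 in Intestine and 1943 in Gill, against 438 (11.5%) in Pancreas, 580 in Muscle and 591 in Ovary. Of all 25390 genes 15855 did so in Kidney, 14979 in Intestine and 15761 in Gill, against 5740 in Pancreas, 6297 in Muscle and 6682 in Ovary. The same tissues thus stood at both ends for genes in general. The highest of the other tissues was Heart in 552 of them, Intestine in 516, Gill in 515 and Kidney in 501. Over all 18102 tested genes it was Heart in 1610, Intestine in 1535, Gill in 3120 and Kidney in 1555, so Gill was the highest less often among the genes called higher than among all genes. Among the genes called higher the lowest of the other tissues was Muscle in 1013, Ovary in 831, Liver in 538 and Pancreas in 421. Where several tissues shared the lowest level of a gene, only 1 of them was counted. These counts therefore cannot rank the tissues. The lowest tissue was not counted over all tested genes.

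The 91 genes called lower were mostly parts of the ribosome. The class was recognised from the protein names after the values were seen and so carries no test of its own. Of 87 tested cytosolic ribosomal protein models 64 were called lower and 0 higher, 22 had no overlap between the groups, and the difference was below 0 in all 87, with a median of -1.41. The median level of these genes was 9.36 in Brain, 9.31 in Telecephlon, 9.67 in Olfactory_bulb and 9.31 in Retina on the log2(FPKM + 1) scale. Among the others Pancreas was as low, at 9.50, and the rest lay between 10.26 in Gill and 11.79 in Skin. Their summed FPKM was 54308 to 69414 in the neural libraries, against 60712 to 333975 in the others.

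The 60S acidic protein P1 (C0J45_19669), part of the stalk that recruits elongation factors, had 1011 FPKM in Brain, 1056 in Telecephlon, 1171 in Olfactory_bulb and 743 in Retina, against 1338 to 15559 with a median of 3853 in the others. All 4 neural libraries lay under Pancreas, the lowest of the others, and Ovary was the highest, at a difference of -1.95 ± 0.46 (adjusted p = 0.00281, limma). The 40S protein SA (C0J45_09286), also known as the laminin receptor, had 630, 435, 552 and 477 FPKM in Brain, Telecephlon, Olfactory_bulb and Retina, against 1178 to 2953 in the others, at -1.82 ± 0.32. L27a (C0J45_05514 and C0J45_25185), L24 (C0J45_20820), S5 (C0J45_10230), L19 (C0J45_06780) and L13a (C0J45_08321) differed by between -1.93 and -1.69. By mean level in the other tissues, P1 was the most abundant of those without overlap. Next came S12 (C0J45_14360), L23a (C0J45_13952), S2 (C0J45_13120) and S7 (C0J45_20071), at -1.61 to -1.45. S12 lost its call without Brain (adjusted p = 0.0623) or without Retina (0.0524).

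The number of ribosomal calls moved with the scaling, though not the position of the genes under the median of all genes. It was 78 of 87 after upper-quartile scaling, at a median of -2.37 where all genes had 0.05. With libraries scaled to the same summed FPKM it was 10 of 87, at a median of -0.85 where all genes had 1.12, and 83 of 87 were below 0. Within the middle depth group alone 81 of 87 were called lower, and without Muscle, Ovary, Pancreas and Testis 78 of 87. With related tissues averaged into 1 unit, which leaves fewer units, 0 of 87 were called by limma, at a median of -1.42, and 32 had no overlap. Leaving out 1 neural library left 33 without Telecephlon, 37 without Retina, 39 without Brain and 48 without Olfactory_bulb.

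**Figure D5:**
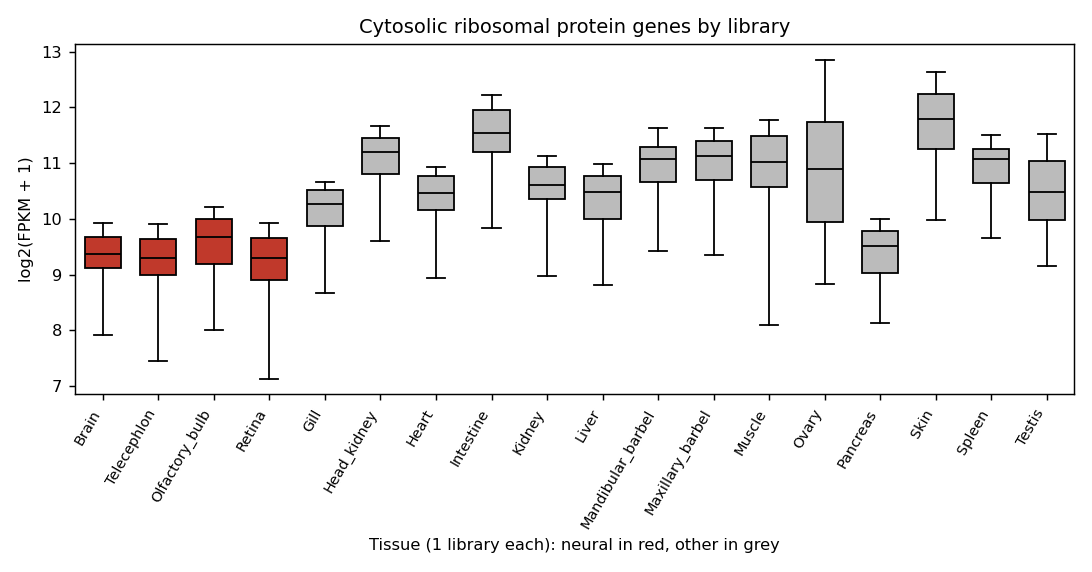
Levels of the 87 tested cytosolic ribosomal protein genes as log2(FPKM + 1) in each library, neural tissues in red at the left and the others in grey. Boxes span the quartiles with the median as a line, and whiskers run between the 10th and 90th percentiles of genes. The neural medians lie between 9.31 and 9.67, beside Pancreas at 9.50 and under the other 13.

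Translation elongation factors, a class also chosen after the values were seen and taken without the alpha 2 model above, were divided: of 11 tested models 3 were called lower and 2 higher, at a median of -0.69. Elongation factor 1 delta a (C0J45_17552), part of the exchange complex that recharges elongation factor 1 alpha, had 60 FPKM in Brain, 39.1 in Telecephlon, 81.6 in Olfactory_bulb and 58.4 in Retina, against 162 to 658 with a median of 411 in the others. It differed by -2.56 ± 0.44 (adjusted p = 7.74e-05, limma), with all 4 neural libraries under the lowest of the others. Its partner elongation factor 1-beta (C0J45_00252) differed by -1.99 ± 0.54, but not as a call with libraries scaled to the same sum (-1.42, adjusted p = 0.0601). RACK1, named guanine nucleotide-binding protein subunit beta-2-like 1 in the files (C0J45_04697) and a scaffold on the small ribosomal subunit, had 185, 181, 219 and 186 FPKM in Brain, Telecephlon, Olfactory_bulb and Retina, against 418 to 1327 in the others, at -1.89 ± 0.36. Initiation factor 3 subunit H-A (C0J45_18533) at -1.18 and the biogenesis factor NSA2 (C0J45_13622) at -1.37 were called, but not without any 1 neural library (adjusted p = 0.0956 to 0.183 and 0.0643 to 0.0815). The initiation factor was also lost without Head_kidney, Spleen, Intestine, either barbel, Muscle or Skin (adjusted p = 0.0504 to 0.0597).

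Outside translation, the gene without overlap that differed most was microsomal glutathione S-transferase 3 (C0J45_19861), a membrane enzyme that handles reactive lipids. Its model lies on chromosome 23 between 6050885 and 6056719. It had 7.13 FPKM in Brain, 3.67 in Telecephlon, 9.45 in Olfactory_bulb and 3.66 in Retina, against 13.4 to 465 with a median of 81.7 in the others, at -3.48 ± 0.81 (adjusted p = 0.00229, limma). Glyceraldehyde-3-phosphate dehydrogenase (C0J45_04122), a glycolytic enzyme often used as a reference gene, had the largest difference of all called lower at -6.38 ± 2.17. It had 2.33 FPKM in Brain, 0.331 in Telecephlon, 0.0161 in Olfactory_bulb and 5.36 in Retina, against 1.15 to 95139 with a median of 231 in the others, where Muscle was the highest. Its call was lost without any 1 neural library (adjusted p = 0.0650 to 0.131), without Liver (0.0507), Ovary (0.0535) or Skin (0.0522), and after upper-quartile scaling (0.0592).

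Of 27 tested models of reference genes 4 were called higher and 3 lower, with a median of 0.49. The higher ones included the pair of elongation factor models above and cyclophilin A (C0J45_15183), which had 170 to 574 FPKM in the neural libraries, against 1.40 to 395 in the others, at 3.87 ± 0.98. After upper-quartile scaling 2 were called higher and 2 lower, and the median was -0.31.

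Lists of other cell types gave few calls over all 18 libraries, but more of them lower in the middle depth group, where Intestine and both barbels are the other tissues. Lower calls were also more frequent there among all genes, at 1059 of 14038, against 91 of 18102 over all libraries. Of 33 tested epithelial models 2 were called higher and 1 lower, with a median of -1.24. Over the middle depth group alone 2 of 20 were called higher and 10 lower, at a median of -3.16. EpCAM (C0J45_01759), an adhesion protein of epithelia, had 0.255 FPKM in Brain, 0.836 in Telecephlon, 26.9 in Olfactory_bulb and 0.249 in Retina, against 0.452 to 1238 in the others, and was not called at -3.69 ± 1.65. Olfactory_bulb stood apart here: 24 of 42 epithelial models reached an FPKM of 1 there, and 12 in each of the other 3. The epithelial models called higher were a claudin-7 (C0J45_06430) at 3.22 ± 0.52 and a junction plakoglobin (C0J45_18674) at 2.88 ± 0.34. Of 20 leukocyte models 0 were called and 0 had an unadjusted p under 0.05 by limma. The invariant chain CD74 (C0J45_10016) had 1074, 1092, 2353 and 376 FPKM in Brain, Telecephlon, Olfactory_bulb and Retina, against 5.48 to 6664 in the others. Fewer cells of a type and less RNA per cell cannot be told apart in bulk tissue.

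Of 24 antigen presentation and interferon models 0 were called by limma, and 1 had an unadjusted p under 0.05, at a median of -0.07. That gene, the antiviral GTPase MxA (C0J45_20953), differed by 0.97 (adjusted p = 0.0588). Proteasome subunit beta type-8 (C0J45_20680), part of the immunoproteasome, was not called at -1.42 ± 1.04. In the middle depth group 8 of 23 models were called lower, at a median of -0.92, and without Muscle, Ovary, Pancreas and Testis 3 of 24 were. Of 31 connective tissue models 3 were called higher. Metalloproteinase inhibitor 2 (C0J45_07208), which restrains matrix breakdown, had 81.9, 115, 75.1 and 67.3 FPKM in Brain, Telecephlon, Olfactory_bulb and Retina, against 0.306 to 33.4 in the others, at 3.5 ± 0.76. Collagen I alpha 1b (C0J45_06958) had 29.4, 2.28, 9.16 and 288 FPKM in the same order, against 18.8 to 912, and was not called at -2.64 ± 1.03. It was called without Retina, at -3.85 (adjusted p = 0.0112), without Ovary, at -2.84 (adjusted p = 0.0483), and without Muscle, at -2.86 (adjusted p = 0.0452).

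Of 23 endothelial models 4 were called higher, against 21.0% of all genes, at a median of 0.65, near that of all genes. In the middle depth group 7 of 20 were, against 1530 of all 14038 tested genes, at a median of 0.97 where all genes had 0.11. The 4 were 2 models of glucose transporter 1, claudin-5 and the receptor VEGFR1 (C0J45_18184), the last at 1.66. The second glucose transporter 1 model (C0J45_00536) was called at 3.09, but not without any 1 neural library (adjusted p = 0.0832 to 0.133, limma) or without Liver, Pancreas, Testis, Muscle or Skin (0.0505 to 0.0524). It was also not called after upper-quartile scaling (0.0680) or in the middle depth group, where the difference was 0.56. The stronger glucose transporter 1 model (C0J45_14495), which feeds the brain across its vessels, had 229 FPKM in Brain, 170 in Telecephlon, 214 in Olfactory_bulb and 446 in Retina, against 0 to 186 with a median of 0 in the others, where Heart was the highest, at 7.24 ± 0.94 (adjusted p = 2.13e-06, limma). Claudin-5 (C0J45_15406), which seals vessels, had 67.7, 74.6, 71.0 and 36.8 FPKM in Brain, Telecephlon, Olfactory_bulb and Retina, against at most 30.6, at 4.03 ± 0.71. PLVAP (C0J45_09163), found in leaky vessels, was at 0.501 to 0.719 FPKM in the brain tissues and at 11.3 in Retina, and was not called at -1.34 ± 0.79.

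Of 11 red cell models 1 was called, protein 4.1 (C0J45_23311) at 2.83 ± 0.36, which also has forms in neurons of mammals. The summed level of the red cell models was 727 to 3639 FPKM in the neural libraries, against 48.3 to 183586 in the others. Of 25 striated muscle models 1 was called, parvalbumin 6 (C0J45_13000) at 4.04 ± 0.37, and the summed level of the list was 60.2 to 290 FPKM in the neural libraries. The Hippo pathway list had 0 calls in 13 models, 0 of them at an unadjusted p under 0.05 by limma, with a median of 0.22. Within the middle depth group 3 of 11 were called lower, at a median of -1.05, where 1059 of all 14038 tested genes were. Annexins, integrins and cortical actin genes had 5 calls higher and 1 lower in 45 models, at a median of -0.41. The balance turned after upper-quartile scaling, with 3 higher and 4 lower at a median of -1.01, and in the middle depth group, with 3 higher and 19 lower of 38 at a median of -1.56. Without Muscle, Ovary, Pancreas and Testis 4 were higher and 5 lower. Annexin A13 (C0J45_05633) was higher at 5.00 ± 0.78, and vimentin (C0J45_04198) at 4.91 ± 0.91, with 501 FPKM in Retina. S100A10b (C0J45_23287), an annexin partner, was lower at -3.68 ± 1.08, with at most 0.949 FPKM in the neural libraries against 0.587 to 354 in the others, and lost its call without Telecephlon (adjusted p = 0.0760).

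The genes called also differed in structure, as the deposited gene models give it. The median span of the deposited gene model was 10964 bp in genes called higher, 2988 bp in genes called lower and 7072 bp in genes not called. The median coding length was 1414 bp, 558 bp and 1284 bp in the same order. With the ribosomal proteins left out, the 27 remaining genes called lower had a median span of 4354 bp.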

How the data were processed

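RNA of 18 adult tissues was made into poly(A)-selected, paired-end libraries after Trizol extraction and DNase treatment, per the labels' protocols, with 1 library for each tissue. The authors' deposited table gives FPKM per gene, and StringTie 1.3.4d is named in the submitters' processing notes. Neither an aligner nor a build is named in those notes or labels. FPKM hides depth, which was estimated from the smallest steps in the values and is uncertain by a factor of 2. Whole reads were not recovered, so no count test was run.

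Values were taken as log2(FPKM + 1). Genes at FPKM 1 in at least 4 libraries were tested with limma 3.58.1 in R 4.3.3 (trended empirical Bayes), 4 neural libraries against 14 others, with Benjamini-Hochberg adjustment over all 18102. Tests were checked on simulated data: of 50 genes planted at each size, 43 were called at a log2 change of 4, 13 at 2, 6 at -2 and 21 at -4, so lower genes were found less often in the simulation. The simulation gave both groups the same spread and drew libraries independently, unlike these data, so its rates do not carry over to them. Genes were named by protein product, joined through locus tags, and 498 of 547 list symbols matched. Named genes were the 12 largest differences each way without overlap, the 5 at each extreme of neural range or, for lower genes, of level, the leading 3 of each list with any furthest against it, and all tested paralogs. Others in the text, the ribosomal class included, were chosen after their values were seen. Members and lists were chosen with earlier results of these data known, and the name patterns were written after the table was opened. Alternatives covered the pseudocount, filter, scaling, spread, depth group, related tissues and each library left out.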

Additional observations from a re-analysis of the deposited data

Results flagged for a closer look

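Of 210 named genes, 19 had 1 neural library far from the other 3 by Dixon's test for 4 samples. Some genes were named for their wide range over these libraries, which favours a flag. Neuronal pentraxin-1 (C0J45_23348) and fibroblast growth factor-binding protein 1 (C0J45_08461) are among them. Chance flags about 1 in 20 groups, and 12 of the 19 concerned Retina. Their parts in the results were not tested.

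Retina was high in 7 genes. It had 1695 FPKM of S-arrestin (C0J45_11175), 182 of neuronal pentraxin-1 (C0J45_23348), 11.3 of PLVAP (C0J45_09163) and 138 of a brain creatine kinase (C0J45_01620). It had 905 FPKM of mitochondrial creatine kinase (C0J45_22408), 145 of Rab-3A (C0J45_11810) and 1740 of a G-protein beta 1-like subunit (C0J45_09058). Retina was low in 5 genes, with 48.5 FPKM of EAAT2 (C0J45_09902), 7.15 of fibroblast growth factor-binding protein 1 (C0J45_08461), 33.0 of fatty acid desaturase 2 (C0J45_09643), 36.8 of claudin-5 (C0J45_15406) and 6.38 of the G(k) alpha subunit (C0J45_15556).

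Olfactory_bulb was high in RACK1 (C0J45_04697) at 219 FPKM, EpCAM (C0J45_01759) at 26.9 and ESRP1 (C0J45_18399) at 0.959. Brain was high in elongation factor 1-alpha 2 (C0J45_14651) at 13 FPKM and ankyrin 1 (C0J45_19123) at 6.20, and low in a CaMKII beta model (C0J45_06018) at 6.15. Telecephlon was low in TEF-5 (C0J45_00445) at 0.862 FPKM.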

How the results depend on the processing

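The count called higher, 3806, became 1948 at a filter of FPKM 5, 5926 with libraries scaled to the same sum, 728 with related tissues averaged, 1530 in the middle depth group and 60 for Brain alone against 9 deep libraries, where 0 were lower by limma and 5 were at an unadjusted p under 0.05. Brain was there assumed to vary like the others. In the averaged, middle and deep sets, and with 1 neural library left out, the filter of 4 left out genes under FPKM 1 in all the other tissues. The count called lower, 91, became 228 after upper-quartile scaling, 19 at the same sum, 281 with a spread per group, 1 with related tissues averaged, 340 with depth as a term, 1059 in the middle group, 21 at the same sum computed without mitochondrial and hemoglobin genes, 12 at a difference of 2, 177 after median-ratio scaling and 377 without Muscle, Ovary, Pancreas and Testis. Genes without overlap were 1303 at FPKM 5 and 1350 after upper-quartile scaling for higher. For lower they were 152 after upper-quartile scaling, 3 at the same sum, with or without mitochondrial and hemoglobin genes, 1497 in the middle group, 2 at a difference of 2, 108 after median-ratio scaling, 166 without those 4 tissues and 90 in the deep group. Median-ratio scaling, the 4 tissues left out and the deep group were chosen after seeing the data. Leaving out 1 neural library gave 1988 to 2503 higher and 39 to 57 lower, and leaving out 1 other gave 3587 to 4015 and 80 to 110. Genes without overlap then ranged over 1617 to 2218 and 2256 to 2461 for higher, and 31 to 41 and 31 to 74 for lower, the highest without Pancreas. VAMP8 (C0J45_19020), not called at 0.12, was -1.88 in the middle group (adjusted p = 0.0498, limma). The cause of these shifts was not tested. No paired analysis was possible because the labels give no replicate numbers. Depth limits low genes most.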

Other observations

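Protein families of at least 20 tested genes were ranked by InterPro name after the values were seen, so they carry no test. Of 20 synaptotagmin genes 19 were called higher, as were 20 of 23 ionotropic glutamate receptors, 23 of 28 neurotransmitter-gated ion channels and 46 of 67 cadherins. At the low end were 0 of 33 JmjC domain genes, 0 of 31 cyclin N-terminal genes, 0 of 26 proteasome alpha or beta subunits and 0 of 22 BRCT domain genes. Families with members in immunity were there too, with 1 of 88 NACHT domain genes, 1 of 46 CARD genes and 5 of 101 immunoglobulin C1-set genes, against 21.0% of all genes. The low end was thus not made up of immune families alone. Other families with members in immunity lay on both sides of that share. Somewhat above it were 8 of 28 C1q domain genes, 9 of 33 death domain genes, 11 of 42 Sushi domain genes and 14 of 54 C-type lectins. Below it were 2 of 37 interleukin-8-like chemokines, 0 of 25 chemokine receptors and 4 of 33 MHC class I alpha chains. So were 3 of 27 genes of the TNFR/NGFR region and 50 of 357 of the immunoglobulin V-set. These examples were picked and are not all such families. By chromosome the share called higher ran between 17.1% on chromosome 21 and 24% on chromosome 17.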
